A study of Mus musculus with 3 samples.

Results

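The genes described here are 47 genes of the unfolded protein response and of the main chaperone families, out of 22457 genes counted in mouse regulatory T cells. They were chosen by name and function, from a list, and the rule uses no measured value, although the list was drawn up with earlier results of these data known. The list holds 3 sensors of the unfolded protein response (UPR), 4 transcription factors, 2 regulatory subunits of the eIF2alpha phosphatase, 15 chaperones and folding enzymes of the endoplasmic reticulum (ER) and 4 genes of ER-associated degradation. It also holds the heat shock factor gene Hsf1, 9 cytosolic HSP70, HSP90 and J protein genes, 6 subunits of the cytosolic chaperonin CCT and 3 mitochondrial chaperones.

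Polyadenylated RNA of primary regulatory T cells (Treg) was sequenced. These are a Foxp3-dependent class of CD4 cells that holds immune responses in check. The cells came from the adult male mouse at an age of 4 months. The samples form a single group of 3 libraries, which the labels describe as technical replicates 1, 2 and 3 of biological replicate 1, so the study holds no comparison between conditions and no control group. Fragments were made by shearing, with a size range given as 100-300, and the sources used here give no strain, genotype, cell purification or treatment. Each SD and each p-value below therefore measures only the spread between libraries of 1 biological sample, which may be technical, and says nothing of the spread between animals.

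Secretory and membrane proteins fold in the ER with the help of the chaperone Hspa5 (BiP), the HSP90 protein Hsp90b1 (Grp94), the lectins calnexin and calreticulin, and protein disulfide isomerases. When unfolded proteins build up there, the sensors Ern1 (IRE1), Eif2ak3 (PERK) and Atf6 start the UPR, which raises the output of chaperone and degradation genes and slows translation. In the cytosol, heat shock proteins under the control of Hsf1 and the ring-shaped chaperonin CCT, which folds actin and tubulin, do the corresponding work. Treg cells carry surface receptors and secrete cytokines, both of which fold in the ER.

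The libraries held 3316275, 3079004 and 2782259 counts, and CPM below is each gene's count divided by this total and multiplied by 1000000. A gene with 0 counts could still have a level of up to 3 counts, which is 0.905, 0.974 and 1.08 CPM in the 3 libraries. Intervals and limits cover counting error only. Detection was set at a minimum of 1 CPM in every library, which 10611 genes (47.3%) met. All 7 Treg markers were detected, among them Foxp3 with 448, 447 and 407 counts and Cd4 with 1892, 1920 and 1501 counts in libraries 1, 2 and 3. Of the 2 CD8 T cell markers, Cd8a had 0, 0 and 1 count and Cd8b1 was detected, with 71, 62 and 89 counts. Summed markers of other cell types were unequal among libraries. The 8 B cell markers, of which 7 were detected, summed to 70.3, 172 and 196 CPM, with the B cell factor Pax5 at 0, 1 and 1 count. The 6 plasma cell markers, of which 3 were detected, summed to 232, 234 and 217 CPM. Most came from Prdm1, which Treg cells also express and which had 225, 204 and 140 CPM in libraries 1, 2 and 3. Without that gene the sums were 6.94, 30.5 and 77.3 CPM. The 8 macrophage and dendritic cell markers, of which 2 were detected, summed to 7.54, 74.7 and 25.2 CPM. The 5 erythroid markers, of which 2 were detected, summed to 6.03, 11.7 and 27.7 CPM. In this bulk RNA, fewer cells of a type and less RNA per cell cannot be told apart.

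Of the 47 genes, 44 were detected, and the remaining 3 (Atf5, Hspa1a and Hspa1b) had at most 6 counts in any library. Together the 47 genes held 13499, 13324 and 14215 CPM in libraries 1, 2 and 3, an average of 1.37% of all counts. To set genes beside each other, CPM was divided by the length of the coding sequence in kb (CPM per coding kb). On that scale the median of all 47 genes was 117.0, the median of all detected genes was 31.7, and 16 of the 47 genes stood above the 90th percentile of the detected genes, 206. The order of the levels was Pdia3, Hspa5, Hsp90ab1, Cct5, Cct8, Hsp90b1 and Calr at the top and Dnajb9, Eif2ak3, Ern1, Atf5, Hspa1a and Hspa1b at the bottom. Of the 46 pairs of neighbours in this order, 33 had ranges over the 3 libraries that overlapped, so the order of most neighbours is not resolved. The other 13 pairs, such as Cct5 above Cct8 and Calr above Cct7, had ranges that did not overlap. These ranges cover the spread between libraries only, and the order also depended on the length used. Per kb of all exons of a gene (exon kb), Hsp90ab1 averaged 393 CPM, Pdia3 315, Cct5 291 and Hspa5 274.

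**Figure D1:**
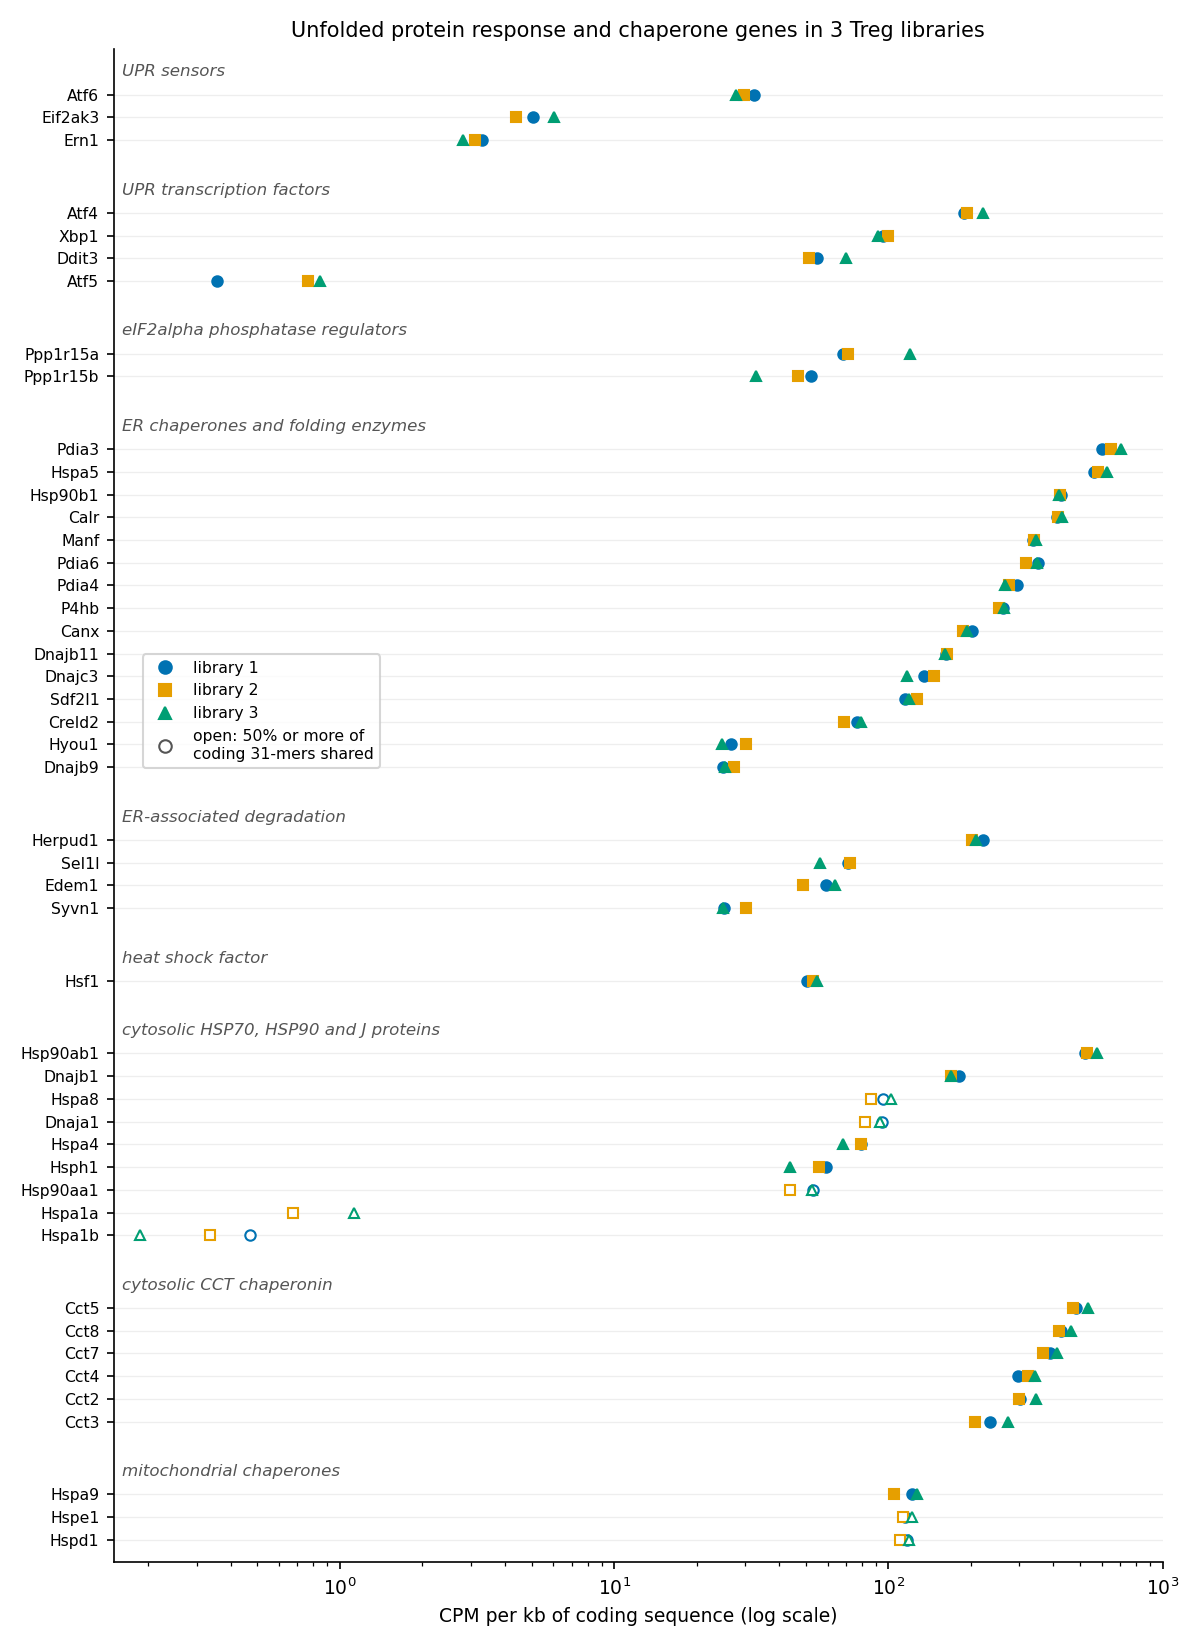
Level of each of the 47 genes as CPM per coding kb (log axis), with 1 symbol per library and genes ordered by mean level within each functional group. Open symbols mark genes with at least 50% of coding 31-mers found in another gene, and the library 1 value of Hspa1a, which is 0, lies off the axis. ER chaperones span 25.9 to 653 CPM per coding kb, whereas Atf5, Hspa1a and Hspa1b lie near or below 1.

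To see which genes varied among libraries, the 3 counts of each gene were set against the library totals in a chi-square test, which allows for Poisson noise only and compares libraries, not conditions. Over all genes with 30 or more summed counts, 2277 of 10043 (22.7%) had a Benjamini-Hochberg adjusted p under 0.05. Of the 47 genes, 44 could be tested and 18 (40.9%) were called. These calls depended on library 3, and without it 3 of the 47 genes and 904 of all genes were called. At an equal relative spread the test calls genes with more counts more often, so the shares called do not compare spread. Calls for single genes stand with each group below.

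The 3 UPR sensors were low. Atf6, an ER membrane protein that is cleaved to release a transcription factor, had 211, 181 and 152 counts, or 63.6, 58.8 and 54.6 CPM. Eif2ak3, the kinase that phosphorylates eIF2alpha, had 56, 45 and 56 counts, and Ern1, the endonuclease that splices Xbp1 mRNA, had 32, 28 and 23 counts. Per coding kb, Atf6 had 32.3, 29.9 and 27.8 CPM in the 3 libraries, while Eif2ak3 averaged 5.15 ± 0.829 CPM and Ern1 3.07 ± 0.237 CPM (SD, n = 3). The ranges of the 3 sensors did not overlap, and Atf6 stood 9.76 ± 0.12 times above Ern1 (SD over libraries). None of the 3 passed the chi-square test, with adjusted p from 0.442 to 0.907.

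Per coding kb, the transcription factors downstream of the sensors were higher than the sensors, apart from Atf5. Atf4, the factor whose translation PERK signalling favours, had 657, 625 and 646 counts, or 198, 203 and 232 CPM. Xbp1, the target of Ern1 splicing, had 253, 246 and 205 counts, or 76.3, 79.9 and 73.7 CPM. Ddit3 (CHOP), a target of Atf4 linked to cell death, had 92, 80 and 98 counts, or 27.7, 26.0 and 35.2 CPM. Per coding kb, Atf4 averaged 202 ± 17.6 CPM, Xbp1 95.7 ± 3.90 CPM and Ddit3 58.8 ± 9.74 CPM (SD, n = 3 each), and the 3 ranges did not overlap. The per-kb level of Atf4 was 3.46 ± 0.29 times that of Ddit3 and 2.11 ± 0.26 times that of Xbp1. Atf4 was highest in library 3 and passed the chi-square test with an adjusted p of 0.0415, but not with TMM totals, and Xbp1 (0.793) and Ddit3 (0.221) did not pass. Gene-level counts do not separate spliced from unspliced Xbp1 mRNA. Atf5, another factor translated under eIF2alpha phosphorylation, had 1, 2 and 2 counts and was not detected. Xbp1 is also abundant in plasma cells, whose markers other than Prdm1 summed to 6.94, 30.5 and 77.3 CPM in the 3 libraries. Prdm1 itself had 225, 204 and 140 CPM. The part of plasma cells in the Xbp1 level was not tested.

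The 2 regulatory subunits that bring a phosphatase to eIF2alpha moved in opposite directions between the libraries. Ppp1r15a (Gadd34), the stress-inducible subunit encoded on chromosome 7 (45522916 to 45526268, minus strand, GRCm38), had 448, 434 and 656 counts, or 135, 141 and 236 CPM. Ppp1r15b, the constitutive subunit encoded on chromosome 1 (133131143 to 133139783, plus strand), had 362, 302 and 191 counts, or 109, 98.1 and 68.6 CPM. Library 3 was thus the highest of the 3 for Ppp1r15a and the lowest for Ppp1r15b, and for both genes libraries 1 and 2 lay close together. The ratio of Ppp1r15a to Ppp1r15b per coding kb was 1.31, 1.52 and 3.64 in libraries 1, 2 and 3. Ppp1r15a gave the lowest adjusted p of the 47 genes in the chi-square test, 4.63e-22, with its highest library at 1.75 times its lowest, and Ppp1r15b gave 2.5e-05 at 1.59 times. Without library 3 neither passed, with adjusted p of 0.764 and 0.446. The quasi-likelihood test of edgeR, which takes the spread between libraries into account, called 136 of 10411 genes (1.31%) in any comparison of 1 library with the other 2. Each such comparison has 1 library on one side, which is assumed to vary like the other 2, and 3 were made. Of the 47 genes, Ppp1r15a passed in 1 of them, with a log2 difference of 0.75 in library 3 against the other 2 and an adjusted p of 0.000192, while Ppp1r15b had -0.61 and 0.0722. DESeq2 did not call Ppp1r15a in the same comparison (log2 difference 0.74, adjusted p 0.993), so the call depends on the test. B cell markers summed to 70.3, 172 and 196 CPM, plasma cell markers other than Prdm1 to 6.94, 30.5 and 77.3 CPM and erythroid markers to 6.03, 11.7 and 27.7 CPM in libraries 1, 2 and 3. All 3 sums were highest in library 3, and in library 2 they stood above library 1, where Ppp1r15a was at nearly the same CPM. Prdm1, left out of the plasma cell sum, was lowest in library 3, at 140 CPM. The part of these cell types in the Ppp1r15a and Ppp1r15b results was not tested.

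**Figure D2:**
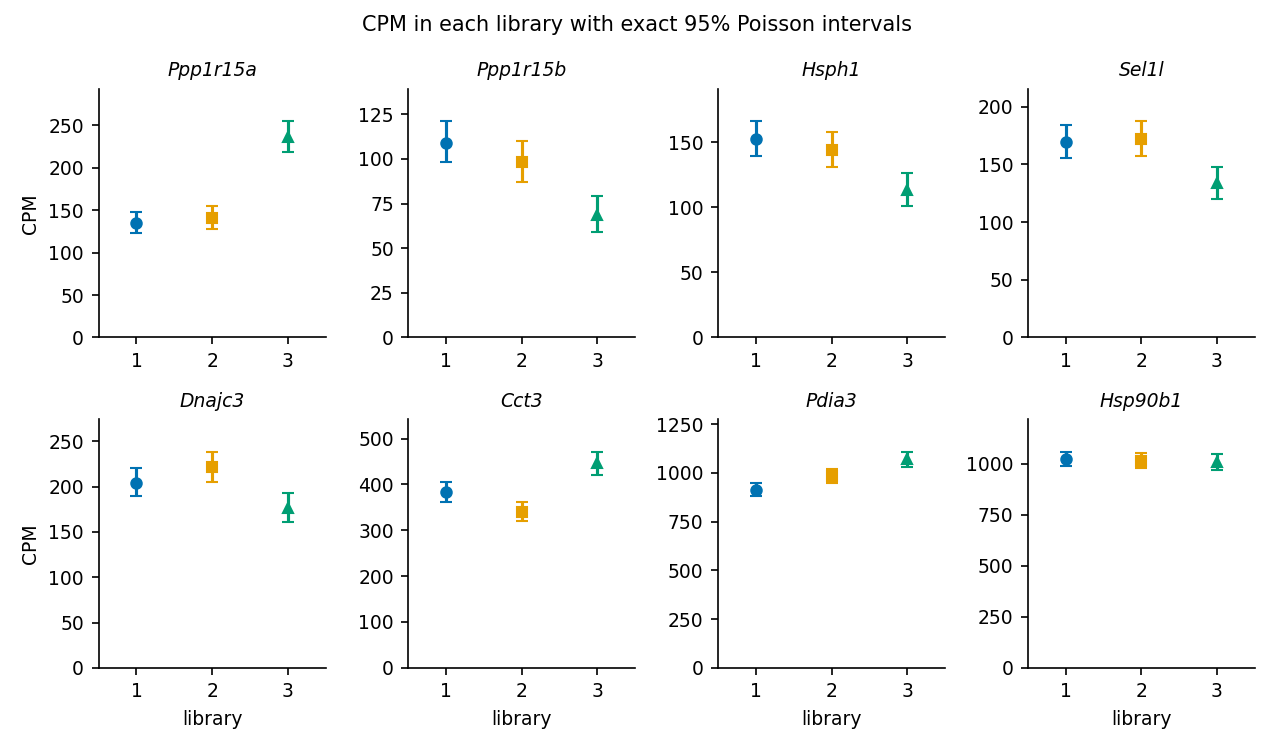
CPM of 8 genes in libraries 1 to 3 (each panel starts at 0), with exact 95% Poisson intervals of the counts as bars. Ppp1r15a stood highest in library 3 at 236 CPM, Ppp1r15b, Hsph1 and Sel1l stood lowest there, and the 3 Hsp90b1 values, 1024, 1014 and 1008 CPM, overlapped.

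The 15 ER chaperones and folding enzymes were all detected. Together they held 6159, 6179 and 6356 CPM in the 3 libraries, 0.623% of all counts, and their median was 260 CPM per coding kb. Hspa5, the ER HSP70, had 3653, 3526 and 3425 counts, or 1102, 1145 and 1231 CPM. Hsp90b1, the ER HSP90, had 3395, 3123 and 2805 counts, or 1024, 1014 and 1008 CPM. Both were among the highest of the 47 genes in every library, but while the CPM of Hsp90b1 varied by 0.772% between libraries (coefficient of variation), that of Hspa5 varied by 5.68%. For raw counts, which are not scaled for depth, the order was reversed, with 9.50% for Hsp90b1 and 3.23% for Hspa5. The third large chaperone, Hyou1 (Grp170), an exchange factor for Hspa5, had 265, 279 and 207 counts, and per coding kb its level was 0.0464 ± 0.0062 of that of Hspa5 (SD, n = 3). Per coding kb, Hspa5 averaged 590 ± 33.5 CPM, Hsp90b1 422 ± 3.26 CPM and Hyou1 27.2 ± 2.75 CPM.

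In the calnexin and calreticulin cycle, which folds glycoproteins, Pdia3 (ERp57), the disulfide isomerase that works with both lectins, was the highest of all 47 genes per coding kb. It had 3030, 3027 and 2975 counts, or 914, 983 and 1069 CPM. Calr (calreticulin), the soluble lectin, had 1708, 1598 and 1495 counts, and Canx (calnexin), the membrane lectin, had 1182, 1021 and 957 counts. Per coding kb, Pdia3 averaged 653 ± 51.5 CPM, Calr 420 ± 9.53 CPM and Canx 194 ± 7.00 CPM (SD, n = 3 each), so that Pdia3 stood 1.55 ± 0.09 times above Calr and 3.37 ± 0.33 times above Canx. The counts of Pdia3 were nearly equal in all libraries, with a coefficient of variation of 1.03%, although the library totals differed by 19.2%, and the coefficient of variation of its CPM was 7.88%. The other disulfide isomerases were Pdia6 with 1553, 1303 and 1291 counts, Pdia4 with 1878, 1631 and 1423, and P4hb with 1331, 1193 and 1119. They averaged 338 ± 18.7, 279 ± 14.5 and 260 ± 5.42 CPM per coding kb in the same order.

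The ER J proteins, which stimulate Hspa5, were lower than these enzymes. Dnajb11 (ERdj3) averaged 163 ± 1.62 CPM per coding kb, Dnajc3 (p58IPK) 133 ± 14.9 and Dnajb9 (ERdj4) 25.9 ± 1.28 (SD, n = 3 each). Dnajb9, with 55, 56 and 47 counts, was the lowest of the 15 ER genes, and 43.1% of its coding 31-mers were shared with a pseudogene. Sdf2l1, a partner of Dnajb11, averaged 120 ± 6.51 CPM per coding kb on 252, 260 and 219 counts. The secreted UPR targets Manf and Creld2 differed per coding kb, but not in the same direction per exon kb. Manf averaged 340 ± 4.48 CPM per coding kb on 598, 561 and 515 counts. Creld2 averaged 75.0 ± 5.72 on 267, 222 and 233 counts. Per exon kb, Manf averaged 51.8 CPM and Creld2 57.7 CPM.

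Between libraries, 4 of the 15 ER genes passed the chi-square test. Pdia3 and Hspa5 were highest in library 3, with adjusted p of 4.23e-07 and 0.000263. Pdia4 was highest in library 1 (adjusted p 0.0497) and Dnajc3 in library 2 (adjusted p 0.00597), and both were lowest in library 3. In CPM the 4 genes thus did not move together, although the calls of Pdia4 and Dnajc3 depended on the settings. Neither was called with library 3 left out, and Pdia4 was also not called with count filters of 10 or any. With library 3 left out, the adjusted p of Pdia3 was 0.0470 and that of Hspa5 0.342. With library 2 left out, the adjusted p of Dnajc3 was 0.0725. Plasma cells are rich in ER chaperones, and the plasma cell list other than Prdm1 was highest in library 3 at 77.3 CPM. In it, Igha had 12, 68 and 128 counts, Jchain 6, 14 and 68, Mzb1 3, 12 and 15, Sdc1 1, 0 and 4 and Tnfrsf17 1, 0 and 0. Prdm1 went the other way, with 225, 204 and 140 CPM in libraries 1, 2 and 3. The part of those cells in the Hspa5 and Pdia3 values was not tested.

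Promoter sequence was not used to choose these genes. They were chosen by function in the UPR, however, and the first motif below is a site of the UPR sensor Atf6. Its share among them is therefore a description and not a separate line of support. In the RefSeq promoter table for GRCm38.p6, with 250 bases before and 50 bases after each start, 37 of the 47 genes matched by symbol. The ER stress element, the site bound by Atf6 together with the CCAAT-binding factor NF-Y, was searched as CCAAT, 9 bases of any kind, then CCACG, on both strands. It was present in 7 of 13 ER chaperone genes (53.8%), which were Hspa5, Hsp90b1, Calr, Canx, Pdia6, Dnajc3 and Creld2, and also in the ER-associated degradation gene Syvn1. Over all 27025 genes of the table, 37 (0.137%) held it, and 8 of those 37 are among the 47 genes described here. Among the 11 cytosolic chaperone genes with a promoter in the table, none held it. The promoters of Hspa5, Hsp90b1 and Calr are shown because they belong to 3 of the 4 ER genes highest per coding kb and hold the element as 1 forward copy, as 1 copy on each strand, and as 1 reverse copy. The element is in capitals, and on the reverse strand it reads CGTGG, 9 bases, then ATTGG. The windows are chr2:34771840-34772139 on the plus strand for Hspa5, chr10:86705395-86705694 on the minus strand for Hsp90b1 and chr8:84846882-84847181 on the minus strand for Calr, each read in the direction of transcription.
Hspa5: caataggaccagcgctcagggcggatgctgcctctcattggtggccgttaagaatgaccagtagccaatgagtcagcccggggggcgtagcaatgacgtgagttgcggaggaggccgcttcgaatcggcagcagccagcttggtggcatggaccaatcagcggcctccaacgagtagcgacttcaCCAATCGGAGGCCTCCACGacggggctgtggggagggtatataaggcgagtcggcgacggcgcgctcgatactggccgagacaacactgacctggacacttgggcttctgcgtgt
Hsp90b1: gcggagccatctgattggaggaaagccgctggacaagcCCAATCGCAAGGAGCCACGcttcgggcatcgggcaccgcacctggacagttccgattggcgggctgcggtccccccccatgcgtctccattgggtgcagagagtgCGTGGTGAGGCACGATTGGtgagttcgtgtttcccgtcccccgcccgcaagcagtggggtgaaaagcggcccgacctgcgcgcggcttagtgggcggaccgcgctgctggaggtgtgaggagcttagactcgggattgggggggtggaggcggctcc
Calr: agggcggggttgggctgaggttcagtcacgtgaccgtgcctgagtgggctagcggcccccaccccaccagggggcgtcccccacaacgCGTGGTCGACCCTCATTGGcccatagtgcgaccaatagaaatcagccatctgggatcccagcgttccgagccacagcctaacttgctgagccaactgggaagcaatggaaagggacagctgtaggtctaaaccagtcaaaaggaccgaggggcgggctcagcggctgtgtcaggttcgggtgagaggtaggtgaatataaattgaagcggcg

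In Hspa5 the element began 65 bases before the start, in Hsp90b1 212 and 107 bases before it, and in Calr 162 bases before it. The CCAAT box alone was found in all 13 ER chaperone promoters, against 41.1% of all genes. A related form, ATTGG, 1 base, then CCACG, which contains the reverse complement of a CCAAT box, was found in Dnajb11 and Herpud1 and in 12 of 27025 genes (0.0444%). The element TGACGTGG, a site of Xbp1 and Atf6, was found in none of the 37 promoters and in 0.714% of all genes, and TGATGNAA, a site of C/EBP and Atf4 pairs, in Herpud1 alone and in 4.51% of all genes. No match says only that these letters are not in this window. The ER chaperone genes with the ER stress element had a median level of 338 CPM per coding kb, from 75.0 for Creld2 to 590 for Hspa5, and the 6 without it a median of 211, from 25.9 for Dnajb9 to 653 for Pdia3. The range of the genes with the element lay within that of the genes without it.

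The 4 genes of ER-associated degradation, which exports misfolded proteins to the proteasome, summed to 591, 559 and 549 CPM. Herpud1, a scaffold of the degradation complex, was the highest, with 861, 729 and 682 counts and 211 ± 9.86 CPM per coding kb (SD, n = 3). Sel1l, the adaptor of the ubiquitin ligase Syvn1 (Hrd1), had 562, 529 and 371 counts, and Syvn1 itself had 153, 171 and 127 counts. Per coding kb, Sel1l stood 2.50 ± 0.31 times above its partner. Edem1, which trims mannose from misfolded glycoproteins, had 385, 293 and 348 counts, or 116, 95.2 and 125 CPM. Sel1l was lowest in library 3 (169, 172 and 133 CPM, adjusted p 0.00246) and Edem1 lowest in library 2 (adjusted p 0.0134), while Herpud1 and Syvn1 did not pass the test. Without library 3, Sel1l no longer passed (adjusted p 0.928).

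On the cytosolic side, Hsf1, the heat shock transcription factor, had 266, 260 and 243 counts and averaged 52.7 ± 2.25 CPM per coding kb (SD, n = 3), with no difference between libraries past the threshold (adjusted p 0.749). Hsp90ab1, the constitutive cytosolic HSP90, was the highest of the 9 HSP70, HSP90 and J protein genes, with 3753, 3554 and 3489 counts, or 1132, 1154 and 1254 CPM. Its inducible relative Hsp90aa1 had 387, 296 and 322 counts, and the per-kb ratio of Hsp90aa1 to Hsp90ab1 was 0.0918 ± 0.0098. Hspa8, the constitutive HSP70, had 614, 514 and 551 counts and averaged 94.6 ± 8.06 CPM per coding kb. The stress-inducible HSP70 genes had few counts: Hspa1a had 0, 4 and 6 counts and Hspa1b 3, 2 and 1 count.

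The levels of several of these genes carry a limit from their sequence. Of the coding 31-mers of Hspa8, 94.8% also occur in transcripts of other genes, 14 of them pseudogenes. The share was 91.5% for Hsp90aa1, 94.7% for Dnaja1, 92.8% for Hspa1a and 88.2% for Hspa1b, whereas for Hsp90ab1 it was 19.3%, and no ER gene reached 50%. The sources used here do not say how reads with several matches were counted, so for these 5 cytosolic genes low expression and reads left out or assigned to copies cannot be told apart. The genes without such overlap were Dnajb1, an HSP70 partner with 612, 532 and 481 counts and 173 ± 6.63 CPM per coding kb, Hspa4 with 667, 619 and 482 counts and 75.9 ± 6.36, and Hsph1 with 504, 443 and 314 counts and 52.9 ± 8.02 (SD, n = 3 each). Hspa4 and Hsph1 are HSP110 proteins that exchange the nucleotide of HSP70. Dnaja1, an HSP40 protein of the cytosol, had 376, 301 and 308 counts. Of the 7 genes tested, Hsp90ab1 was highest in library 3 (adjusted p 0.000444) and Hsph1 was lowest there (152, 144 and 113 CPM, adjusted p 0.00144), and the other 5 did not pass. Neither Hsp90ab1 nor Hsph1 held without library 3. With TMM totals, and likewise with DESeq2 size factors, Hspa4 passed as well.

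The 6 listed CCT subunits, which sit side by side in the rings of the chaperonin, were high and, per coding kb, close to each other. Cct5 had 2592, 2352 and 2419 counts, Cct8 2316, 2124 and 2115, and Cct7 2102, 1844 and 1865. Cct4 had 1592, 1613 and 1536 counts, Cct2 1609, 1484 and 1543, and Cct3 1269, 1046 and 1240. Per coding kb they ran from 238 ± 32.6 CPM for Cct3 to 496 ± 34.8 for Cct5 (SD, n = 3 each), a 2.08-fold range, around a median of 355. Per exon kb the range was wider, from 61.1 CPM for Cct3 to 291 for Cct5. The summed CPM of the subunits was 3462, 3398 and 3852 in libraries 1, 2 and 3. All 6 passed the chi-square test with library totals. All 6 were highest in library 3 with library totals and also with TMM, DESeq2 or sparse-gene scaling. They had 0.725 to 1.51 counts per coding base, with Cct2, Cct3 and Cct4 below 1. Of all genes with a density of at least 1 count per coding base, 40.3% were called and 445 of 491 had a higher CPM in library 3 than in library 1. At a density of 0.2 to 1, 27.4% were called and 1669 of 2915 had a higher CPM in library 3 than in library 1. Cct3 was the most variable of the 6 subunits, with 383, 340 and 446 CPM and an adjusted p of 3.88e-08. The other 5 gave adjusted p from 0.000194 to 0.0179. With TMM totals, and likewise with DESeq2 size factors, 4 of the 6 passed, without Cct7 and Cct8. With library 3 left out 1 of the 6 passed (Cct3), and 5 of the 6 passed with library 1 or library 2 left out. The edgeR test called 0 of the 6, with 1 at an unadjusted p under 0.05. Summed plasma cell markers other than Prdm1, B cell markers and erythroid markers were highest in library 3 as well, at 77.3, 196 and 27.7 CPM. Prdm1 was lowest there, at 140 CPM. The part of these cell types in the CCT values was not tested.

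The 3 mitochondrial chaperones had nearly the same level per coding kb, but not per exon kb. Hspd1 (Hsp60) and Hspe1 (Hsp10), which together form the mitochondrial chaperonin, had 664, 583 and 569 counts and 117, 107 and 104 counts. Hspa9 (mortalin), the mitochondrial HSP70, had 825, 656 and 721 counts. Per coding kb, Hspa9 averaged 118 ± 11.9 CPM, Hspe1 117 ± 4.54 CPM and Hspd1 115 ± 4.55 CPM. On that scale the ratio of Hspe1 to Hspd1 was 0.990, 1.03 and 1.03 in the 3 libraries. Per exon kb, Hspa9 averaged 55.8 CPM, Hspe1 24.3 CPM and Hspd1 75.0 CPM. The coding 31-mers of Hspd1 and Hspe1 are 79.1% and 83.3% shared with other genes, which by number are mostly pseudogenes. For Hspe1 the largest overlap, 76.4%, is with a gene annotated as protein-coding. Both levels therefore carry the limit given for Hspa8. Hspa9 was lowest in library 2 (adjusted p 0.00611) and was not called with library 2 left out, and the other 2 did not pass.

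Hspd1 and Hspe1 lie head to head on chromosome 1 on opposite strands, and their promoter windows overlap by 285 bases. The heat shock element, the site of Hsf1, was searched as 3 alternating units of GAA and TTC with 2 bases between them, in either order. It was found in both Hspd1 and Hspe1, where the sites lie in the shared bases and are the same ones. Among the 11 cytosolic chaperone genes with a promoter it was found in Hsph1 alone, and 179 of 27025 genes (0.662%) held it. Hspa8, Hsp90aa1, Hsp90ab1 and Cct4 had no promoter in the table and could not be searched. No ER chaperone promoter held it. With only 2 units, 6 of the 11 cytosolic genes matched, against 17.0% of all genes. The promoters of Hspe1 (chr1:55087898-55088197, plus strand) and Hsph1 (chr5:149636266-149636565, minus strand) are shown with the element in capitals, from the same RefSeq table of GRCm38.p6, as the contrast to the ER promoters above.
Hspe1: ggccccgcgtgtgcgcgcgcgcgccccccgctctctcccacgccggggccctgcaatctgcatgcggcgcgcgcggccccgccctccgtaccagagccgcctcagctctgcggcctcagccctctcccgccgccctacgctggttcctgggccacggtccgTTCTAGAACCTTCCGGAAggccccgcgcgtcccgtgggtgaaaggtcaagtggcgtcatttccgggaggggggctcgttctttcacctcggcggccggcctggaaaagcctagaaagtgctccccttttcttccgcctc
Hsph1: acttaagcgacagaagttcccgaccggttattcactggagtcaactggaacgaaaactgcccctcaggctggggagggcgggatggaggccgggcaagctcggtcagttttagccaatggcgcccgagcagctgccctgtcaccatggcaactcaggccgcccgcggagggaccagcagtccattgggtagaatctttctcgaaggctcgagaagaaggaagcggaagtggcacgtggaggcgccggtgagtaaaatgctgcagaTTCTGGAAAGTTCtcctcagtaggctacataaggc

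In Hspe1, 2 overlapping elements began 89 and 84 bases before the start, within the shared window, and in Hsph1 the element began 15 bases after the start.

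The ER list was set against the cytosolic list (15 genes each, the cytosolic list being the HSP70, HSP90, J protein and CCT genes). In every library the median ER gene stood above the median cytosolic gene: 263 against 181 CPM per coding kb in library 1, 254 against 169 in library 2 and 263 against 169 in library 3. The log2 ratio of ER to cytosolic medians was 0.54, 0.58 and 0.64, with a mean of 0.59 ± 0.05 (SD, n = 3 technical libraries). The direction rested on genes with shared sequence: without the members at 50% or more shared 31-mers, all 5 of them cytosolic, the log2 ratio was -0.29, with the 10 remaining cytosolic genes at a median of 318 CPM per coding kb. The cytosolic list was itself split, since the CCT subunits had a median of 355 and the HSP70, HSP90 and J protein genes a median of 75.9. Against the HSP70, HSP90 and J protein genes alone, the ER list stood 1.78 higher on the log2 scale. The 5 genes with shared sequence are all among these 9, so the median of 75.9 and the 1.78 carry the sequence limit. The others averaged 543 (Hsp90ab1), 173 (Dnajb1), 75.9 (Hspa4) and 52.9 (Hsph1) CPM per coding kb. Members are not replicates, so no test was made between the lists.

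**Figure D3:**
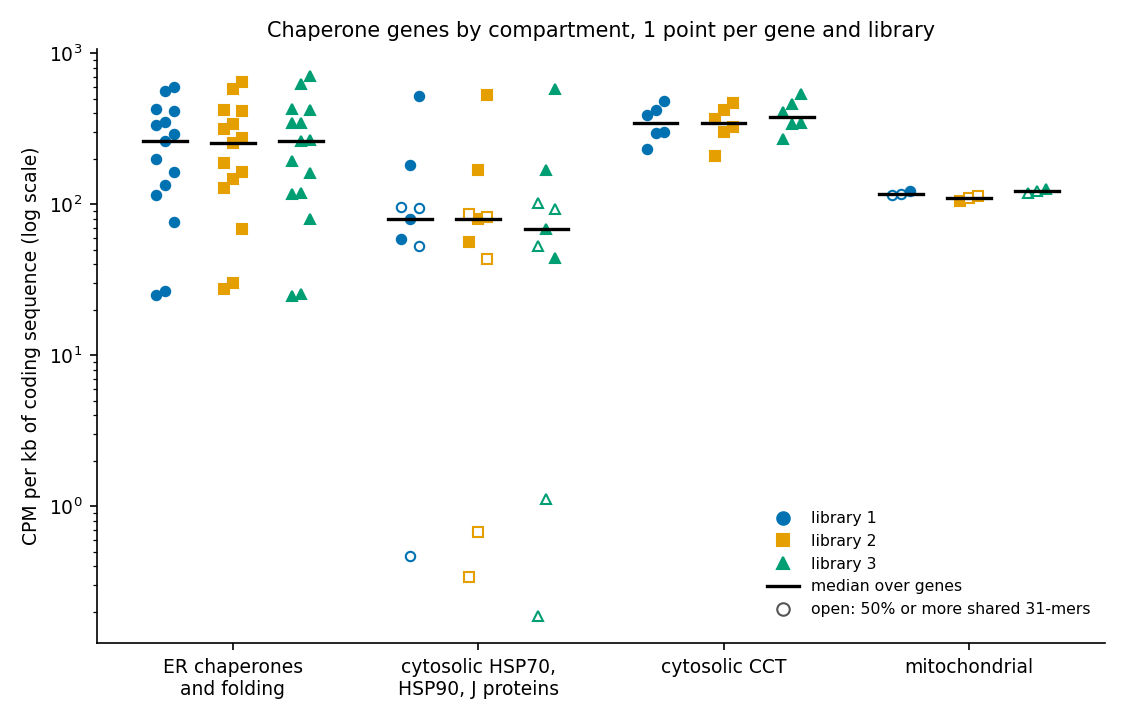
CPM per coding kb (log axis) of the ER chaperones, the cytosolic HSP70, HSP90 and J proteins, the CCT subunits and the mitochondrial chaperones, with 1 point per gene and library and bars at the median over genes. Open points mark genes with 50% or more shared coding 31-mers, and the library 1 value of Hspa1a, which is 0, lies off the axis. ER medians lie near 260, HSP70, HSP90 and J protein medians near 75.9 and CCT medians near 355.

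Genes of related families were also compared across compartments. Per coding kb, Hspa5 in the ER stood 5.03 ± 0.50 times above mitochondrial Hspa9 and 6.25 ± 0.46 times above Hspa8, whose level carries the sequence limit. It stood 7.83 ± 1.14 times above cytosolic Hspa4, which has no shared 31-mers. Hspa4, however, is an HSP110 exchange factor and not the cytosolic counterpart of Hspa5. Among the listed exchange factors the ER gene was the lowest. Hyou1 averaged 27.2 CPM per coding kb, against 75.9 for Hspa4 and 52.9 for Hsph1. For HSP90, Hsp90b1 of the ER had 0.779 ± 0.047 of the per-kb level of Hsp90ab1 in the cytosol. Hsp90b1 stood 8.54 ± 0.95 times above Hsp90aa1, again with the sequence limit on Hsp90aa1 (SD over 3 libraries throughout).

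The 18 genes of the list called as different between libraries were Pdia3, Hspa5, Pdia4, Dnajc3, Hsp90ab1, Hsph1, Hspa9, Atf4, Ppp1r15a, Ppp1r15b, Sel1l, Edem1 and the 6 CCT subunits. Library 3 was the highest for 13 of them, library 2 for 2 and library 1 for 3, and over all called genes library 3 was the highest for 807 (35.4%). The 3 genes called without library 3 were Cct3, Hspa9 and Pdia3. Without library 2, Cct7, Dnajc3, Edem1 and Hspa9 were no longer called, and without library 1, Atf4, Cct4 and Pdia4 were not, so Cct3 and Pdia3 alone were called with any 1 library left out. By the edgeR test, Ppp1r15a alone among the 47 was called, in library 3, where 110 of all genes were called.

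The genes with the most counts per coding base were called most often. Density was taken as the mean count over libraries divided by coding length. Of the 10 genes with a density of at least 1, 6 were called, against 9 of 22 at 0.2 to 1 and 3 of 12 below 0.2. Over all genes the shares were 40.3%, 27.4% and 19.4% in the same order. The chi-square test calls genes with more counts more often at an equal relative spread, so these shares do not measure spread. Over all genes the median coefficient of variation of CPM was 6.69%, 7.28% and 14.4% in the same order. In the densest class, 445 of 491 genes had a higher CPM in library 3 than in library 1, with a median log2 ratio of 0.17, and 8 of the 10 listed genes did, with a median of 0.10. In that class the median coefficient of variation over all genes was 3.75% for raw counts and 6.69% for CPM, although raw counts are not scaled for depth. Pdia3, at 1.99 counts per coding base, was the densest of the 47 genes, followed by Hspa5. The sources used here do not state the handling of duplicate reads, and its part in these values was not tested.

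**Figure D4:**
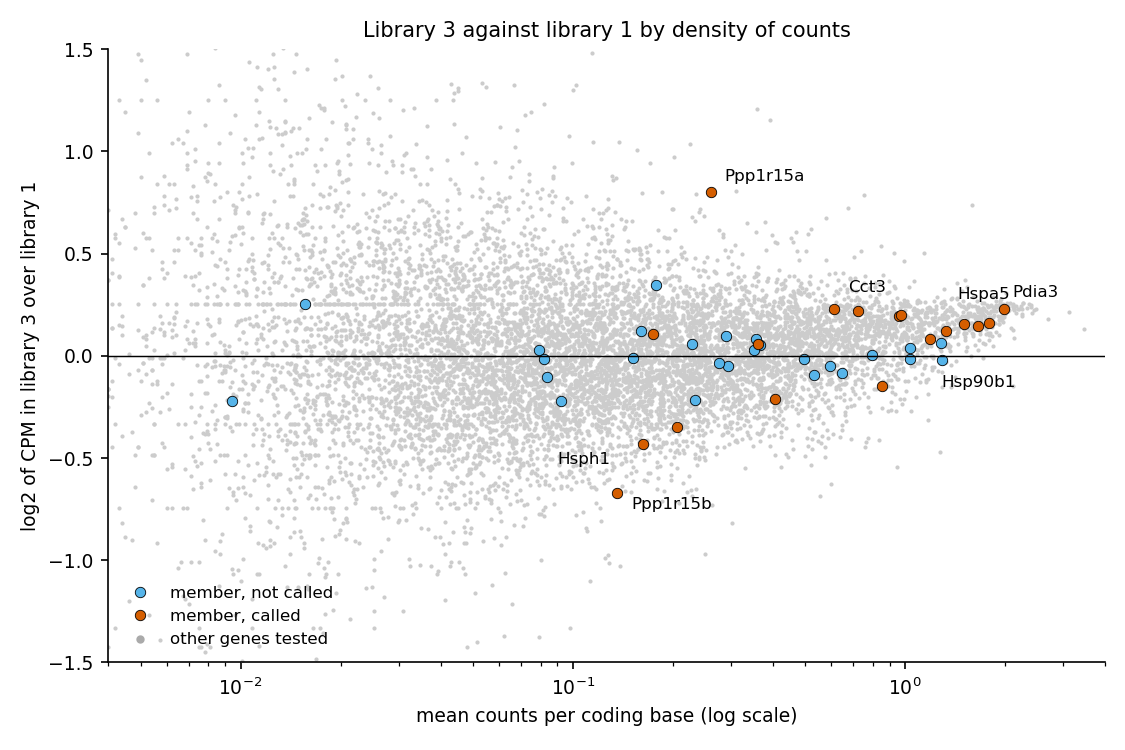
Log2 ratio of CPM in library 3 to library 1 against the mean counts per coding base (log axis), with 1 point per gene tested and the 44 listed genes in colour (the vertical axis ends at 1.5 in both directions). Dense genes such as Pdia3 and Hspa5 lie above 0 with most other dense genes, Hsp90b1 lies near 0, and Ppp1r15a (0.80) and Ppp1r15b (-0.67) stand apart.

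Further genes of the same pathways were read from lists of 85 genes, of which 84 were matched in the tables. Of the 84 genes, 76 were detected and 15 of the 75 tested (20.0%) differed between libraries, close to the 22.7% of all genes. Among UPR regulators and targets of the PERK branch, 5 of 11 were called. Their highest genes per coding kb were Eif2s1, which encodes eIF2alpha, at 276 ± 18.6 CPM with 56.9% of its 31-mers shared, Traf2, an adaptor bound by Ern1, at 166 ± 6.58, and the kinase Eif2ak2 (PKR) at 82.9 ± 9.77 (SD, n = 3 each). The lowest were the stress-induced genes Atf3, with 1, 0 and 1 count, and Chac1, with 1, 0 and 0 counts.

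In the other ER folding and redox genes, 2 of 16 were called, and the highest were the prolyl isomerase Ppib at 552 ± 37.1 CPM per coding kb with 51.3% of its 31-mers shared, the translocon subunit Sec61a1 at 280 ± 11.8 and Ssr1 at 253 ± 19.8. The oxidase Ero1lb (5.39 ± 2.03) and Pdia5 (2, 7 and 0 counts) were the lowest. In other degradation genes, 1 of 13 was called, with Selenos at 292 ± 19.5, Derl2 at 272 ± 10.3 and Ufd1 at 195 ± 8.88 CPM per coding kb as the highest and Edem3 at 9.39 ± 1.53 and Derl3, with 7, 1 and 2 counts, as the lowest. Derl3 is prominent in plasma cells and was also the single further gene of these lists whose promoter held the ER stress element.

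Among the other cytosolic chaperones and cochaperones, 6 of 20 were called. The J proteins Dnaja2 at 284 ± 22.1 and Dnajc7 at 278 ± 15.4 CPM per coding kb and the HSP70 and HSP90 adaptor Stip1 at 228 ± 2.88 were the highest, Dnajb2 was low at 6.24 ± 1.63, and the small heat shock gene Hspb1 had 0 counts in every library with 90.3% of its 31-mers shared. Of the other CCT and prefoldin subunits 1 of 8 was called, which was the CCT subunit Tcp1 at 358 ± 29.3 CPM per coding kb, like the 6 subunits above highest in library 3 (adjusted p 0.000176). The CCT subunit Cct6a had 1340, 1286 and 1195 counts and was not called (adjusted p 0.475). Pfdn5 at 392 ± 31.5, with 52.5% of its 31-mers shared, and Vbp1 at 246 ± 23.3 were the other high genes, and Pfdn2 at 110 ± 10.4 and Cct6b, with 2, 3 and 2 counts, were the lowest. Among other mitochondrial chaperones 0 of 7 were called by the chi-square test (1 at an unadjusted p under 0.05) and 0 by edgeR, with Grpel1, the exchange factor of Hspa9, at 244 ± 9.10 CPM per coding kb, Trap1 at 105 ± 7.35 and Clpp at 104 ± 8.81 as the highest and Dnaja3 at 30.1 ± 2.25 and Lonp1 at 12.7 ± 0.803 as the lowest.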

How the data were processed

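Gene counts of 3 libraries of poly(A) RNA from mouse Treg cells were used. The authors deposited unscaled whole-number counts per gene for each library, which per the deposited notes come from mm10 with GENCODE M4. The sources used here give no aligner, counter, strand use or handling of duplicate and multi-mapped reads. Totals ran from 2782259 to 3316275, and precision is given as exact 95% Poisson intervals. Symbols matched for 22195 of 22457 genes in GENCODE M21 (GRCm38, the same assembly), and 21784 had a coding length. CPM used library totals. Counts were compared with library totals by a chi-square test with 2 degrees of freedom over genes whose 3 counts summed to at least 30, at a Benjamini-Hochberg adjusted p of 0.05. Alternatives used edgeR 4.0.16 (quasi-likelihood, 1 library against the other 2), DESeq2 1.42.0, R 4.3.3, Python 3.11.15 and SciPy 1.17.1, and scripts were tested on simulated data. Coding 31-mers were looked up in all M21 transcripts. Promoters came from RefSeq (GRCm38.p6), with 37 of 47 genes matched. Protein sequences and retention signals were not analysed here, nor was the listed gene Hspa14, which matched no row. All 47 genes are named, with the 3 highest and 2 lowest per coding kb of each further list. The genes and lists were chosen with earlier results of these data known.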

Additional observations from a re-analysis of the deposited data

How the results depend on the processing

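The count of the 47 genes that differed between libraries was 18 and ranged from 16 to 18 with count filters of 10 or any, TMM totals, DESeq2 size factors, or totals of genes under 0.2 counts per coding base (an alternative chosen after seeing the data), and that of all genes was 2277 and ranged from 2130 to 2464. In all 3 of these scalings, 13 of the 18 genes were highest in library 3. With TMM totals, and likewise with DESeq2 size factors, 15 of the 16 genes called were among the 18, and the other was Hspa4. The edgeR test of 1 library against the other 2 called 1 of the 47 genes and 136 of all genes, and DESeq2 called 0 and 2, with 6 (edgeR) and 2 (DESeq2) of the 47 at an unadjusted p under 0.05. Leaving out 1 library gave 3 to 16 of the 47 genes, with the 3 when library 3 was left out, and 904 to 1466 of all genes. These fits test fewer samples. Detected genes numbered 44 or 45 under all alternatives tried. The log2 ratio of ER to cytosolic medians, 0.59, stayed positive at 0.56 to 0.61 without any 1 library, 0.58 and 0.59 with pseudocounts of 1 and 0.1, 0.45 per exon kb, 0.30 as a mean over genes, 0.39 without genes of at least 1.8 counts per coding base, 0.16 with degradation genes in the ER list, 0.14 over detected genes, and 1.78 against HSP70, HSP90 and J proteins alone. It reversed to -0.29 without genes at 50% or more shared 31-mers, which removes 5 cytosolic and 0 ER genes. These 5 are all HSP70, HSP90 or J protein genes, so the 1.78 carries the same sequence limit. With 1 mismatch in CCACG, 9 of 13 ER promoters held the ER stress element, against 7 with none. With 2 units in place of 3, 6 cytosolic promoters held a heat shock element, against 1. No paired analysis was possible because the libraries form a single group. Depth limits Hspa1a, Hspa1b and Atf5, each under 1.2 CPM on average.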
